A study of Mus musculus with 2 samples.

Results

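Macrophages that carry the complement genes C1qa, C1qb and C1qc together with Cx3cr1, Vcam1, Adamdec1 or Axl, and little of the chemokine Cxcl9, are described here as they occur in mouse 4T1 mammary tumors. They were chosen in 2 droplet libraries (10x Genomics) by their unique molecular identifier (UMI) counts, each UMI standing for 1 captured RNA molecule. Retained barcodes had between 500 and 5000 genes with a UMI and no more than 10% of UMIs from mitochondrial genes, and a retained cell was called a macrophage when S100a8 and S100a9 together held under 1.5% and C1qa, C1qb and C1qc together at least 0.3% of its UMIs. A macrophage was chosen when it held at least 3 UMIs summed over Cx3cr1, Vcam1, Adamdec1 and Axl, under 0.1% of its UMIs in Cxcl9, and at most 1 detected gene of the resident macrophage genes Lyve1, Cd163, Cbr2 and Vsig4. The rule took 601 of 1234 macrophages, out of 5187 retained cells and 7951 barcodes.

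4T1 is a mammary carcinoma line of BALB/c mice. The 4T1P library came from tumors of the parental line, which does not respond to anti-PD1, and the 4T1M library from tumors of a derivative that does respond, made by treating the parental cells with the mutagen MNNG. The study calls 4T1M a clone, although its methods describe the mutagenized cells as multiclonal. Each library was 1 pool of cells from 5 BALB/c mice aged 6 to 8 weeks per the labels (a legend of the study gives fewer pooled mice, and its methods an older age), taken from tumors at the stage before treatment and isolated on beads for GR1, an antigen shared by Ly6G and Ly6C. With 1 library per condition there is no spread between animals, so no test was run, and every interval given is a 95% interval for counting error only.

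C1q is the recognition part of the classical complement pathway, and tissue macrophages are a main source of it. Cx3cr1 encodes the receptor of the chemokine fractalkine, which is carried by monocytes and by many macrophages that derive from them, and Axl encodes a receptor tyrosine kinase that binds dying cells through the bridging protein Gas6. Vcam1 encodes an adhesion molecule that binds integrins on leukocytes, and Adamdec1 a secreted metalloprotease known from gut macrophages.

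The 4T1P library held 242 chosen cells among 570 macrophages, or 42.5% (exact binomial interval 38.4% to 46.6%). The 4T1M library held 359 among 664, or 54.1% (50.2% to 57.9%). As a share of all retained cells the order was the other way, at 14.0% of 1726 cells in 4T1P (12.4% to 15.8%) and 10.4% of 3461 cells in 4T1M (9.38% to 11.4%). The bead isolation and the single pool behind each library stand behind all 4 shares.

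Because the rule counts UMIs, the share depended on how deeply a cell was sampled. The chosen cells had a median of 17824 UMIs and 3893 genes in 4T1P and of 14385 UMIs and 3500 genes in 4T1M. The other macrophages had a median of 2664 UMIs in 4T1P and 2103 in 4T1M. Among macrophages with under 2500 UMIs, 8.05% were chosen in 4T1P and 5.56% in 4T1M, and among those with 10000 UMIs or more, 71.9% and 84.8%. After thinning to 2000 UMIs per macrophage, for which 135 cells of 4T1P and 155 of 4T1M were too shallow, the rule took 15.4% (12.1% to 19.1%) and 19.8% (16.5% to 23.6%), and these intervals overlap. Of the chosen cells deep enough to be thinned, 66 of 231 in 4T1P (28.6%) and 100 of 351 in 4T1M (28.5%) were taken again. The chosen cells therefore stand for the deep part of the macrophages. For the main comparisons with the rest, the calls that differ among cells of matched depth are given as well. Matched depth means cells between the 10th and 90th percentile of the chosen cells' UMIs. Within that range the chosen cells were still deeper, with medians of 17824 against 14658 UMIs in 4T1P and 14385 against 12911 UMIs in 4T1M.

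**Figure D1:**
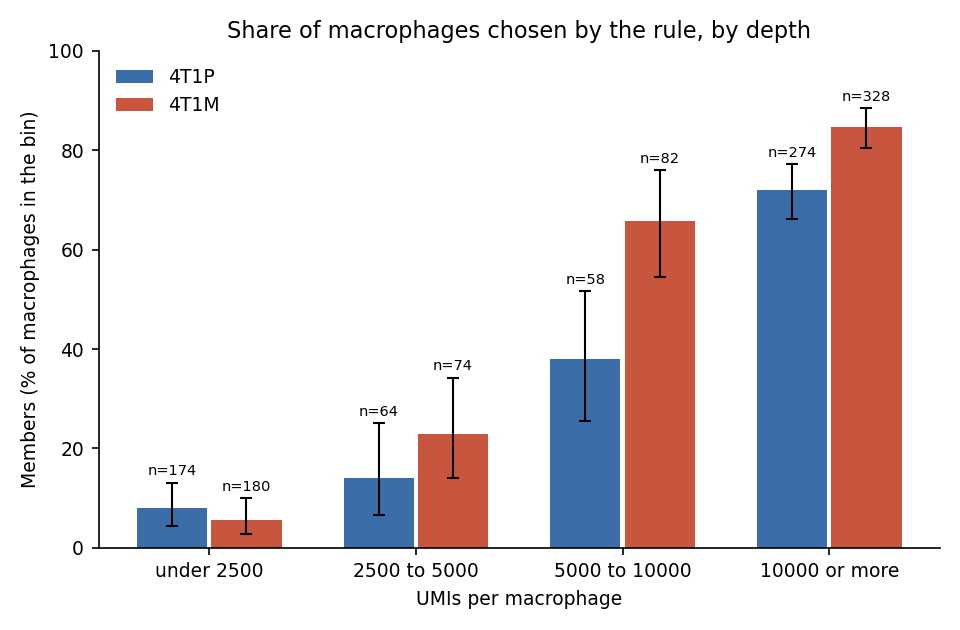
Share of macrophages chosen by the rule (percent, vertical axis) in 4 bins of UMIs per macrophage (horizontal axis) for 4T1P and 4T1M, with exact binomial 95% intervals and the number of macrophages per bin. The share goes from 8.05% and 5.56% in the shallowest bin to 71.9% and 84.8% in the deepest.

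The genes that made the choice are described first, with no test, since their values chose the cells. Axl was the most widespread, with a UMI in 91.3% of the chosen 4T1P cells and 96.1% of the chosen 4T1M cells. Cx3cr1 had one in 82.6% and 86.9%. Vcam1 and Adamdec1 were carried by fewer cells and in opposite order between the libraries, Vcam1 by 39.3% in 4T1P and 27.0% in 4T1M, and Adamdec1 by 27.3% and 46.5%. Axl alone would have chosen 72.7% and 71.6% of the cells, and Vcam1 alone 24.0% and 15.0%. All 4 genes were found together in 14.9% and 9.19% of the chosen cells. The cells had a median of 11.5 UMIs of the 4 genes in 4T1P and 11 in 4T1M, against a threshold of 3.

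As a background for these shares, retained cells with at least 1.5% of UMIs in S100a8 and S100a9, the genes of neutrophil calprotectin, were counted the same way. There were 623 such cells in 4T1P (median 3075 UMIs) and 1739 in 4T1M (median 2972 UMIs). After thinning to 2000 UMIs, Axl had a UMI in 43.7% and 47.3% of the chosen macrophages and in 0.763% and 1.72% of the S100-rich cells. Vcam1, thinned alike, had a UMI in 21.6% of the chosen macrophages in 4T1P and 12.8% in 4T1M, against 0.191% and 0.788% of the S100-rich cells. The chosen cells were required to hold UMIs of these genes, so the distance between both is no result. The source of these UMIs in the S100-rich cells was not tested.

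UMIs were next summed over the cells of a group and given per 1000000 UMIs of that group (CPM). Cx3cr1 (GRCm38 chromosome 9, 119901616 to 120069879, minus strand) stood at 347 CPM in the chosen cells of 4T1P against 104 CPM in the other macrophages, and at 369 against 91.9 CPM in 4T1M. Axl (chromosome 7, 25757273 to 25788705, minus strand) stood at 302 against 122 CPM and at 323 against 130 CPM. Adamdec1 (chromosome 14, 68563380 to 68582095, minus strand) stood at 63.3 against 18.8 CPM and at 159 against 51.1 CPM. These 3 genes were higher in the chosen cells of both libraries, as the rule required of at least some of them.

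Vcam1 (chromosome 3, 116109949 to 116129688, minus strand) did not follow. It stood at 195.5 CPM against 67.2 CPM in 4T1P, but at 104 CPM against 98.1 CPM in 4T1M, a log2 ratio of 0.09 (-0.18 to 0.37). Against other 4T1M macrophages in the matched depth range its log2 ratio was -0.41 (-0.70 to -0.11). In macrophages left out for their Cxcl9, Vcam1 stood at 302 CPM in 4T1P and 352 CPM in 4T1M. These values rested in part on single cells. One Cxcl9-high cell held 49 of the 142 Vcam1 UMIs of the other 4T1M macrophages, and without it they stood at 65.1 CPM and the log2 ratio was 0.68. Without the cell with the most Vcam1, which held 32 UMIs in 4T1P and 49 in 4T1M, the Cxcl9-high group stood at 194 and 205.5 CPM. Whether Vcam1 was higher in the chosen cells of 4T1M thus depended on 1 cell. C1q was required of every macrophage, and C1qa stood at 4157 against 3844 CPM in 4T1P and 4359 against 4054 CPM in 4T1M.

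C6 and Spon1 were not part of the rule but had been listed as markers of these cells with earlier results of these data known. Their values are therefore a description. C6, a component of the terminal membrane attack complex (chromosome 15, 4727175 to 4814967, plus strand), stood at 59.0 against 33.6 CPM in 4T1P, a log2 ratio of 0.80 (0.42 to 1.22). In 4T1M it stood at 56.7 against 47.7 CPM, and the interval of its log2 ratio held 0 (0.24, -0.13 to 0.65). Spon1, the matrix protein spondin 1 (chromosome 7, 113765998 to 114043370, plus strand), stood at 60.1 against 26.7 CPM in 4T1P and at 126 against 71.2 CPM in 4T1M, with log2 ratios of 1.16 (0.74 to 1.62) and 0.82 (0.52 to 1.14). Spon1 was higher in both libraries, C6 in 4T1P.

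**Figure D2:**
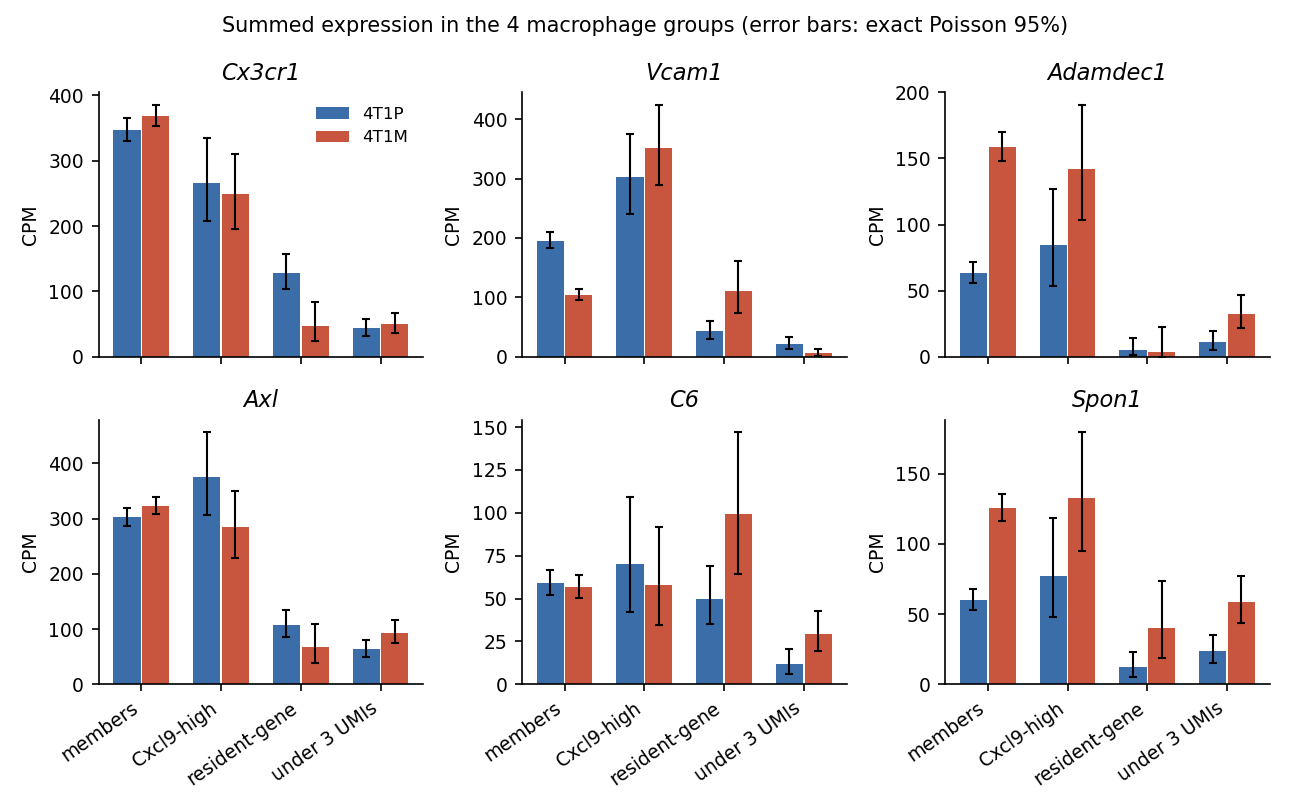
Summed expression (CPM, vertical axes starting at 0) of Cx3cr1, Vcam1, Adamdec1, Axl, C6 and Spon1 in the chosen macrophages (members), in macrophages with at least 0.1% Cxcl9, in macrophages with 2 or more resident genes and in macrophages under 3 UMIs of the 4 genes, with exact Poisson 95% intervals. Vcam1 stands at 302 and 352 CPM in the Cxcl9-high group (194 and 205.5 CPM without 1 cell in each library) and at 195.5 and 104 CPM in the chosen cells.

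At the threshold, 28 chosen cells of 4T1P and 24 of 4T1M had exactly 3 UMIs of the 4 genes, with median depths of 4023 and 5694 UMIs. Just outside it, 38 cells in each library met the other criteria with 2 UMIs, with median depths of 4166 and 3019 UMIs. Cells with 10 UMIs or more made up 135 chosen cells in 4T1P and 214 in 4T1M. C6 stood at 11.1 CPM just outside and 13.6 CPM just inside the threshold in 4T1P, and at 81.2 CPM in cells with 10 UMIs or more. In 4T1M it stood at 27.3, 10.4 and 69.7 CPM. C6 levels at other numbers of UMIs were uneven, with 6.398 CPM in 4T1P and 36.2 CPM in 4T1M in cells with 7 to 9 UMIs, and 12.3 and 24.0 CPM in cells with 0 UMIs. Malt1, described further on, was already at 731 CPM in 4T1P and 769 CPM in 4T1M just outside the threshold.

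All 12 genes of a fixed macrophage list were detected in the chosen cells of both libraries, and none was past 1.5-fold against the other macrophages in both. Csf1r, the receptor of the macrophage growth factor, stood at 619 against 464 CPM in 4T1P and 616 against 451 CPM in 4T1M. The antigen used for the isolation left little trace in their RNA. Ly6g stood at 0.479 and 0.578 CPM in the chosen cells, from 2 and 3 UMIs, against 294 and 220.5 CPM in the S100-rich cells. Ly6c2 stood at 1.44 CPM in 4T1P, all of it from 1 cell, and at 5.20 CPM in 4T1M. The chosen cells of a GR1 isolation thus held few UMIs of either gene.

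Markers of other cell types were low in the chosen cells, with a few exceptions. All 6 mast cell or basophil genes were at 0 in both libraries. The 12 T or NK cell genes summed to 5.03 and 7.90 CPM, with Cd3g, Trac, Nkg7, Ncr1 and Gzma at 0 in both. The 8 fibroblast genes summed to 2.40 and 1.73 CPM, the 8 endothelial genes to 6.95 and 8.67 CPM, mostly Kdr, and the 8 tumor or epithelial genes to 20.6 and 24.9 CPM, mostly Cdh1. The 8 B cell genes summed to 31.4 and 50.1 CPM, of which Ighm held 28.8 and 39.9 CPM. The 10 dendritic cell genes summed to 19.9 and 21.4 CPM, mostly Batf3. The 12 neutrophil genes summed to 828 CPM in 4T1P and 1479 CPM in 4T1M, with S100a9 the most abundant at 279 and 607 CPM.

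The erythrocyte genes were the exception that rested on a single cell. The 4 globin genes summed to 891 CPM in the chosen cells of 4T1P and 2.51 CPM in 4T1M, and 3703 of the 3719 globin UMIs of 4T1P were in 1 cell. No barcode of a chosen cell was found in both libraries, although 5 barcodes were shared among all cells.

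Against the other macrophages of the same library, 229 of 9389 genes with enough UMIs (2.44%) were at least 1.5-fold higher in the chosen cells of both libraries, and 254 (2.71%) at least 1.5-fold lower. Restricted to cells between the 10th and 90th percentile of the chosen cells' UMIs, which kept 192 and 287 chosen cells and 95 and 67 others, 171 of 8922 genes (1.92%) were higher and 289 (3.24%) lower. Of the 229 genes, 207 had enough UMIs at matched depth, 206 kept their direction in both libraries and 106 were still past 1.5-fold. Of the 254, 206 had enough, 196 kept their direction and 158 were still past it. These counts are descriptions, because the cells were chosen by their expression.

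The 12 genes with the highest ratios had varied functions. Malt1, the paracaspase that relays signals to NF-kB, stood at 775 against 366 CPM in 4T1P and 1146 against 565 CPM in 4T1M, with log2 ratios of 1.08 (0.97 to 1.20) and 1.02 (0.91 to 1.13). Ifih1, which encodes the double-stranded RNA sensor MDA5, stood at 357 against 156 CPM and 537 against 261 CPM. Mir155hg, the host transcript of a microRNA induced in activated myeloid cells, stood at 67.8 against 30.1 CPM and 122 against 52.5 CPM, a measure of the transcript and not of the mature microRNA. All 3 were about 2-fold higher in both libraries, and at matched depth the log2 ratios were 0.81 and 0.56 for Malt1, 1.12 and 0.60 for Ifih1, and 0.94 and 0.60 for Mir155hg.

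Col14a1, a fibril-associated collagen, stood at 80.3 against 36.6 CPM in 4T1P and 65.1 against 29.0 CPM in 4T1M, and its log2 ratio hardly moved at matched depth (1.03 and 1.05). Ptger4, a receptor of prostaglandin E2, stood at 132 against 74.1 CPM and 189 against 106 CPM. Slc38a1, an amino acid transporter, stood at 397 against 221 CPM and 430 against 192 CPM. Chka (choline kinase), Plxdc2 (a transmembrane protein), Ccnf (cyclin F), Lacc1 (a macrophage metabolic enzyme), Dst (a cytoskeletal linker) and Eid3 had log2 ratios between 0.83 and 1.59. Of the 12 genes, 8 stayed past 1.5-fold in both libraries at matched depth, 3 when every macrophage was thinned to 2000 UMIs before the choice, and 0 when a chosen cell could hold no Cxcl9 UMI at all. In that last case the ratio nearest 0 of the 2 libraries was 0.58 for Malt1, 0.43 for Ifih1 and 0.48 for Mir155hg. That setting counts the chosen cells with a Cxcl9 UMI, 23.55% in 4T1P and 28.97% in 4T1M, among the others. The 12 genes are thus not given as particular to the chosen cells.

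**Figure D3:**
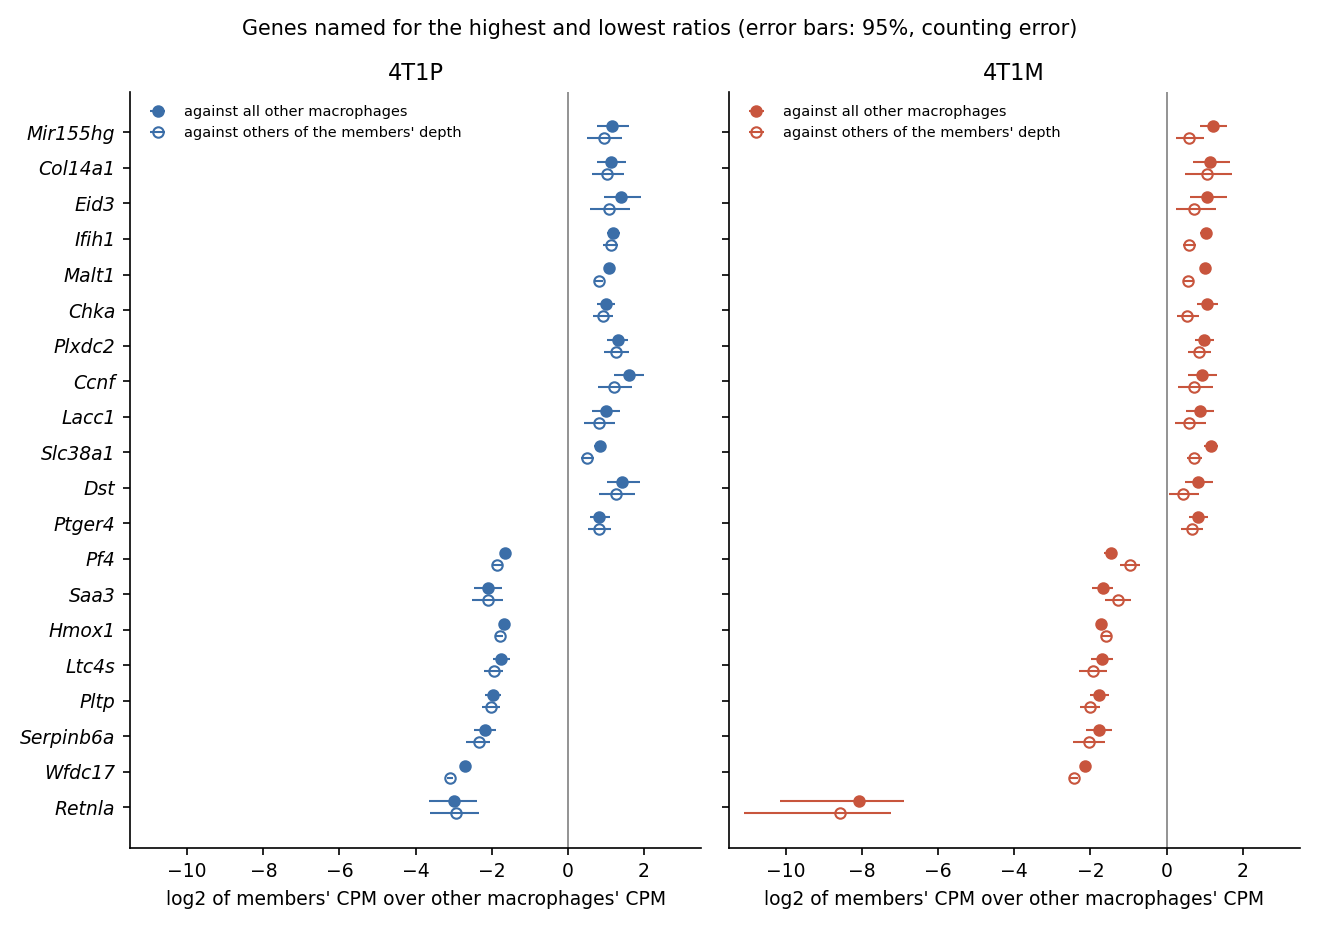
Log2 ratio of the chosen macrophages' CPM (members) over other macrophages' CPM for the 12 highest and 8 lowest genes outside the rule. Ratios are for 4T1P (left) and 4T1M (right), against all others (filled) and against others in the matched depth range (open), with exact conditional 95% intervals. Every gene keeps its side of 0 in both libraries and at both depths, and the Retnla value of 4T1M rests on 4 UMIs in the chosen cells.

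The 8 genes with the lowest ratios had varied functions. Wfdc17, a small secreted protein with a whey acidic protein domain, stood at 427 CPM in the chosen cells of 4T1P against 2770 CPM in the others, and at 411 against 1800 CPM in 4T1M, with log2 ratios of -2.70 (-2.77 to -2.62) and -2.13 (-2.21 to -2.05). Hmox1, haem oxygenase 1, stood at 411 against 1320 CPM and at 333 against 1101 CPM, with log2 ratios of -1.69 and -1.73. Pf4, the chemokine platelet factor 4, stood at 300.5 against 937 CPM and at 122 against 336 CPM. All 3 were lower in both libraries, and at matched depth the log2 ratios were -3.09 and -2.43 for Wfdc17, -1.79 and -1.59 for Hmox1, and -1.86 and -0.96 for Pf4.

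Serpinb6a (a protease inhibitor), Pltp (phospholipid transfer protein), Ltc4s (leukotriene C4 synthase) and Saa3 (a serum amyloid A) had log2 ratios between -2.17 and -1.68. Saa3 rested in part on single cells, with 28.0% of its UMIs in the chosen cells from 1 cell in 4T1P and 54.1% in 4T1M. Retnla, a product of alternatively activated macrophages, had log2 ratios of -2.99 and -8.09, but 96.4% of its UMIs in the chosen 4T1P cells came from 1 cell, and 57.8% of those in the other 4T1M macrophages came from 1 cell with resident genes. Of the 8 lowest genes, all 8 stayed past 1.5-fold at matched depth, 7 after thinning and 6 when no Cxcl9 UMI was allowed. The rule counts cells with 2 or more resident genes among the other macrophages. Such a cell held the most UMIs among the others in both libraries for Wfdc17, Serpinb6a, Pltp, Ltc4s, Saa3 and Retnla. At matched depth, cells under 3 UMIs of the 4 genes were a smaller part of the others, as given further on. These low ratios are thus not independent of the choice.

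Lists of genes fixed for macrophage functions were compared next. Beside them, the median log2 ratio over all 9389 genes was -0.05 in 4T1P and 0.00 in 4T1M, and 29.1% of all genes were higher and 34.7% lower in both libraries. Of the resident macrophage genes outside the rule, 8 of 10 had enough UMIs, 7 were lower in both libraries and 5 of these past 1.5-fold, namely Folr2, Gas6, Pf4, F13a1 and Fcna, with list medians of -1.30 and -1.08. After thinning, 2 of 7 were past it. Folr2, a folate receptor, stood at 84.8 against 214 CPM in 4T1P and 23.3 against 118 CPM in 4T1M. The rule removes cells with 2 or more of Lyve1, Cd163, Cbr2 and Vsig4, so this list is not independent of the choice.

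All 8 MHC class II genes with enough UMIs were higher in the chosen cells of both libraries, with medians of 0.68 and 0.39, and 0 of the 8 were past 1.5-fold in both. H2-Aa, a chain of the class II molecule that presents peptides to CD4+ T cells, stood at 3496 against 2355 CPM in 4T1P and 4722 against 3925 CPM in 4T1M. All 8 were higher at matched depth as well, with medians of 0.77 and 0.30. B cells carry class II genes too. Against all other macrophages the B cell list summed to 31.4 against 21.7 CPM in 4T1P and 50.1 against 60.8 CPM in 4T1M. At matched depth the B cell list summed to 37.8 against 25.1 CPM in 4T1P and 50.4 against 24.4 CPM in 4T1M, with Ighm past 1.5-fold higher. Its part in the class II values was not tested.

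Among 19 cytokine and regulator genes, Il1a, Il1b, Il10 and Il12b were at least 1.5-fold higher in both libraries, and Retnla was among those at least 1.5-fold lower. Il1b, which encodes the inflammatory cytokine interleukin 1 beta, stood at 3402 against 1919 CPM in 4T1P and 4502 against 2835 CPM in 4T1M. At matched depth Il1b and Il12b were still past 1.5-fold and Il18 was past it as well, while Il1a and Il10 were not in both libraries. Il12b, a subunit of interleukin 12, stood at 22.5 against 1.98 CPM and 48.0 against 0.691 CPM, and 56.4% of its UMIs in the chosen 4T1P cells came from 1 cell.

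Of 17 chemokine genes, 0 were past 1.5-fold higher in both libraries, and Ccl6, Ccl9 and Pf4 were past it in the lower direction. Ccl6, which attracts myeloid cells, stood at 1263 against 3149 CPM in 4T1P and 646 against 1754 CPM in 4T1M. Ccl9 stood at 386 against 1018 CPM and 223 against 440 CPM. At matched depth Ccl7 was past it as well. Ccl4, which attracts monocytes and T cells, stood on the other side at 4422 against 3068 CPM and 6848 against 4354 CPM, past 1.5-fold in 4T1M alone.

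The adhesion and matrix list held 18 genes with enough UMIs, of which Itga4, Itga6, Spon1 and Mmp13 were past 1.5-fold higher and Timp2 lower. Itga6, an integrin subunit that binds laminin, stood at 58.2 against 22.7 CPM in 4T1P and 42.0 against 15.9 CPM in 4T1M, with log2 ratios of 1.62 and 1.27 at matched depth. Mmp13, a collagenase, stood at 365 against 209 CPM and 389 against 209 CPM. Timp2, an inhibitor of such enzymes, stood at 215 against 450 CPM and 185 against 305 CPM. At matched depth Itga4 was no longer past 1.5-fold, and Thbs1 and Ecm1 were past it in the lower direction.

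Of the genes for the uptake of dying cells outside the rule, 8 of 17 were higher and 6 lower in both libraries, and those past 1.5-fold were lower, namely Gas6, Pros1 and Cd36. Gas6 encodes a bridging ligand of Axl and Mertk, and Pros1 one of Mertk. In 4T1P Gas6 stood at 75.5 against 185 CPM and Pros1 at 21.6 against 59.8 CPM. In 4T1M Gas6 stood at 44.3 against 71.2 CPM and Pros1 at 25.4 against 45.6 CPM. The same 3 genes were past 1.5-fold at matched depth. Mertk itself stood at 67.1 against 62.7 CPM and 76.3 against 48.4 CPM.

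Of 21 lipid and lysosome genes, 12 were lower and 4 higher in both libraries, with Fabp5 and Gpnmb past 1.5-fold lower, and at matched depth Gpnmb and Ctsl. Fabp5, a fatty acid binding protein, stood at 284 against 427 CPM in 4T1P and 243 against 674 CPM in 4T1M. Apoe, the lipid carrier of many tumor macrophages, had log2 ratios of 0.36 and 0.09. Among 24 regulators, the transcription factor genes Maf and Id3 were past 1.5-fold lower, with Maf at 212 against 374 CPM and 129 against 209 CPM. Of 15 checkpoint and costimulation genes, Pdcd1lg2, which encodes PD-L2, and Icosl were past 1.5-fold higher and Cd200r1 lower. Cd274, which encodes PD-L1, stood at 161 against 120.5 CPM in 4T1P and 224 against 181 CPM in 4T1M.

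Other lists held few or no genes past 1.5-fold in both libraries. There were 0 of 12 complement, 0 of 13 transforming growth factor beta, 0 of 10 microglia-associated, 0 of 6 chemokine receptor and 0 of 12 immediate-early and heat shock genes. Of 18 hypoxia and glycolysis genes, Adm was lower, with 54.5% of its UMIs in the other 4T1M macrophages from 1 cell, and 0 of 17 were past 1.5-fold at matched depth. Of 8 monocyte genes, Vcan and F13a1 were lower at either depth. Of 7 neutrophil genes, Mmp9 and G0s2 were lower, and at matched depth Mmp9 alone. Cd93, a complement-list gene, was past 1.5-fold lower at matched depth alone. Cell cycle genes differed between the comparisons. Cdk1 and Ccnb1 were past 1.5-fold lower against all others. At matched depth 6 of 10 were higher and 3 lower, beside 24.7% and 34.4% of all genes there. Ube2c was then past 1.5-fold higher, and Cdk1 stood at log2 ratios of 0.11 and -0.03. The depth range also changed the make-up of the others. Cells under 3 UMIs of the 4 genes were 242 of 328 others in 4T1P, and 42 of 95 at matched depth. In 4T1M they were 248 of 305 and 35 of 67. The cause of the cell cycle shift was not tested.

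Several of these calls rested on 1 cell. Leaving out the cell with the most UMIs of a gene, in each group in turn, ended 14 of the 63 calls among the listed and named genes in at least 1 library. The 63 include the rule genes Cx3cr1, Axl, Adamdec1, Cxcl9, Lyve1, Cd163, Cbr2 and Vsig4. The choice of the cells bears on the calls of these rule genes, and none of them ended. For the ended calls named above, the weakest log2 ratio was 0.57 for Il10, 0.55 for Pdcd1lg2 and 0.57 for Icosl among the higher genes. Among the lower genes it was -0.01 for Cd36, -0.46 for Gas6, -0.54 for Maf, -0.56 for Timp2, -0.45 for Fabp5, -0.52 for Ccnb1 and -0.52 for Mmp9. Gpnmb and G0s2 changed sign, to 0.53 and 0.05. Of the Fabp5 UMIs of the other 4T1M macrophages, 30.9% were in 1 cell.

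Of 23 interferon-response genes, 11 were higher and 2 lower in the chosen cells of both libraries, and Ifit2, Isg15 and Rsad2 were past 1.5-fold, Ifit2 no longer without 1 cell (0.53). Isg15, a ubiquitin-like protein induced by interferons, stood at 389 against 248.5 CPM in 4T1P and 974 against 484.5 CPM in 4T1M. It was the 1 of the 3 still past 1.5-fold in both libraries at matched depth.

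The other macrophages were made of 3 groups that the rule left out. The Cxcl9-high group held 29 cells in 4T1P and 33 in 4T1M, the group with 2 or more resident genes 57 and 24, and the group under 3 UMIs 242 and 248. The last group held the shallow cells, with median depths of 2111 and 1880 UMIs. Wfdc17 stood at 6487 CPM in 4T1P and 5500 CPM in 4T1M in the resident-gene group, at 709 and 1269 CPM in the group under 3 UMIs, and at 339 and 320 CPM in the Cxcl9-high group, next to 427 and 411 CPM in the chosen cells. Of the 5608 Wfdc17 UMIs of the other 4T1P macrophages, 4797 were in the resident-gene cells.

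Hmox1 divided the groups in another way. It stood at 1467 and 1462 CPM in the resident-gene group and at 1528 and 1350 CPM in the group under 3 UMIs. In the Cxcl9-high group it stood at 144 and 96.8 CPM, below the 411 and 333 CPM of the chosen cells. The group under 3 UMIs was uneven, with Hmox1 at 2218 and 1896 CPM in cells with 0 UMIs and 582 and 205 CPM in those with 2. In that group 1 cell held 494 of the 2673 Hmox1 UMIs of the other 4T1P macrophages, and 1 cell 419 of 1593 in 4T1M. Spon1 stood at 77.4 and 132 CPM in the Cxcl9-high group and at 60.1 and 126 CPM in the chosen cells, with Poisson intervals that overlap, and at 12.2 and 39.8 CPM in the resident-gene group. For Spon1 the chosen cells stood closer to the Cxcl9-high group than to the resident-gene group. Isg15 was also close to the Cxcl9-high group in 4T1M (974 and 839 CPM) but not in 4T1P, where it stood at 389 CPM in the chosen cells and 1054 CPM in the Cxcl9-high group.

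The chosen cells differed among themselves. Among chosen 4T1P cells with 10000 UMIs or more, 77 had a Vcam1 UMI (median 18643 UMIs) and 120 had none (median 19432 UMIs), so both sets were of like depth. Ccl8, a monocyte-attracting chemokine, stood at 710 CPM with Vcam1 and 19.9 CPM without. Of the Ccl8 UMIs of all chosen 4T1P cells, 21.2% came from 1 cell. C6 stood at 120 and 17.0 CPM, Mmp13 at 665 and 174 CPM, and H2-Aa at 4579 and 2749 CPM. Spp1, which encodes osteopontin, stood the other way, at 1240 CPM with Vcam1 and 3847 CPM without. Among the deep chosen cells of 4T1P, Vcam1 thus marked a set with more C6, Ccl8 and Mmp13 and less Spp1.

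In 4T1M the same split, with 72 cells that had a Vcam1 UMI (median 15608 UMIs) and 206 that had none (median 16357 UMIs), was made next. C6 stood at 96.3 CPM with Vcam1 and 42.6 CPM without, and Ccl8 at 150 and 55.4 CPM. Mmp13 stood at 383 and 379 CPM, H2-Aa at 4676 and 4721 CPM, and Spp1 at 2413 and 2662 CPM. Folr2 stood at 54.5 CPM with Vcam1 and 13.1 CPM without in 4T1M, against 98.3 and 79.2 CPM in 4T1P, and Ccl6 at 851 and 577 CPM in 4T1M, against 1064 and 1404 CPM in 4T1P. C6 and Ccl8 kept their direction in 4T1M, Ccl6 did not, and Mmp13 and H2-Aa differed little between the sets of 4T1M. Splitting by Adamdec1 in place of Vcam1 gave the same direction for C6, at 180 CPM with and 17.1 CPM without Adamdec1 in 4T1P and 72.2 and 41.5 CPM in 4T1M, but for Ccl8 it gave 943 and 75.2 CPM in 4T1P and 60.0 and 96.0 CPM in 4T1M.

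**Figure D4:**
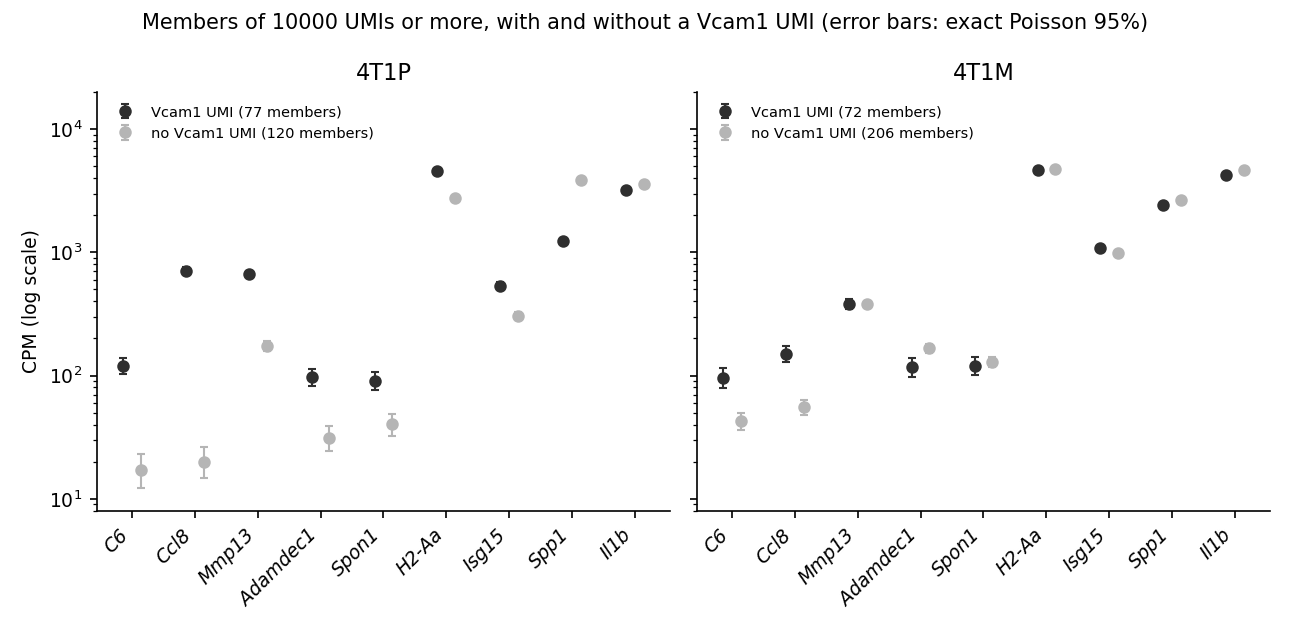
Expression (CPM, log axis) of 9 genes in chosen macrophages with 10000 UMIs or more, split by whether a Vcam1 UMI was found, in 4T1P (77 and 120 cells) and 4T1M (72 and 206 cells), with exact Poisson 95% intervals. The C6 levels with and without Vcam1 are 120 and 17.0 CPM in 4T1P and 96.3 and 42.6 CPM in 4T1M, and those of H2-Aa 4579 and 2749 CPM in 4T1P and 4676 and 4721 CPM in 4T1M.

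The chosen cells of 4T1M were then set beside those of 4T1P, the comparison of a responding with a non-responding tumor that the study was built on. Of 10243 genes with enough UMIs, 617 (6.02%) were at least 1.5-fold higher in 4T1M and 696 (6.79%) at least 1.5-fold lower. In the other macrophages, 641 of 8562 genes (7.49%) were higher and 1017 (11.9%) lower. The median log2 ratio over all genes was -0.02 in the chosen cells. Pools, tumors and libraries cannot be told apart from the condition in any of these values.

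Most interferon-response genes were higher in 4T1M. Of 23 with enough UMIs in the chosen cells, 21 were higher and 19 past 1.5-fold, with a median log2 ratio of 0.98. Of all genes in the chosen cells, 47.2% were higher, 52.8% lower and 6.02% past 1.5-fold higher. In the other macrophages, where 42% of all genes were higher and 58% lower, 22 of 23 were higher and 15 past 1.5-fold, with a median of 0.87. Isg15 stood at 389 CPM in the chosen cells of 4T1P and 974 CPM in those of 4T1M, a log2 ratio of 1.33 (1.25 to 1.41). Rsad2, which encodes the antiviral enzyme viperin, stood at 340.5 and 912 CPM (1.42, 1.33 to 1.51). Irf7, a transcription factor that amplifies the interferon response, stood at 64.9 and 191 CPM (1.56, 1.36 to 1.76), and Ly6e at 162 and 536 CPM (1.73, 1.61 to 1.85). When the macrophages were thinned to 2000 UMIs before the choice, 9 of 17 genes with enough UMIs were past 1.5-fold. The exceptions to the direction were Ifit2, at 132 and 119 CPM, and Irf1, with a log2 ratio of -0.29.

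The promoters of Isg15 and Rsad2 are shown because these genes carried the interferon difference with the most UMIs among the named genes. Each stretch is the 150 bases before the start of the RefSeq gene (GRCm38.p6), read 5′ to 3′ on the gene's strand, with matches to the core of the interferon-stimulated response element, GAAANNGAAA on either strand, in capitals. In Isg15 (chr4:156200819-156200968, minus strand) 3 overlapping matches lie 78, 72 and 66 bases before the start. In Rsad2 (chr12:26456453-26456602, minus strand) 1 match on the other strand lies 120 bases before it.
Isg15: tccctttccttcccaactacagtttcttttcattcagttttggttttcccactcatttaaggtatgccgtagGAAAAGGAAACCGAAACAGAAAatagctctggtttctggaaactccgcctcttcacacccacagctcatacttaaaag
Rsad2: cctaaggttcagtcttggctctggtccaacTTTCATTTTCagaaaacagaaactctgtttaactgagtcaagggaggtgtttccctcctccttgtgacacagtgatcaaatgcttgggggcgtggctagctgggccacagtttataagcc
In windows of 250 bases before to 50 bases after the start, the motif was found in 11 of 19 interferon-response genes with a promoter in the table (57.9%) and in 1079 of 27025 genes in all (3.99%). A match is a description of the sequence and not a site of binding.

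Neutrophil transcripts were also higher in the 4T1M macrophages and are given beside this result. The neutrophil list summed to 828 CPM in the chosen cells of 4T1P and 1479 CPM in those of 4T1M, and to 848 and 2058 CPM in the other macrophages. The S100-rich cells held more Isg15 than the chosen cells, 991 CPM in 4T1P and 1360 CPM in 4T1M. Rsad2 stood at 382 and 741 CPM in the S100-rich cells and Irf7 at 87.8 and 133 CPM, so in 4T1M both were lower there than in the chosen cells. S100a8 and S100a9 are part of the rule, which keeps their share low in every macrophage. The part of neutrophil RNA in the interferon values was not tested.

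**Figure D5:**
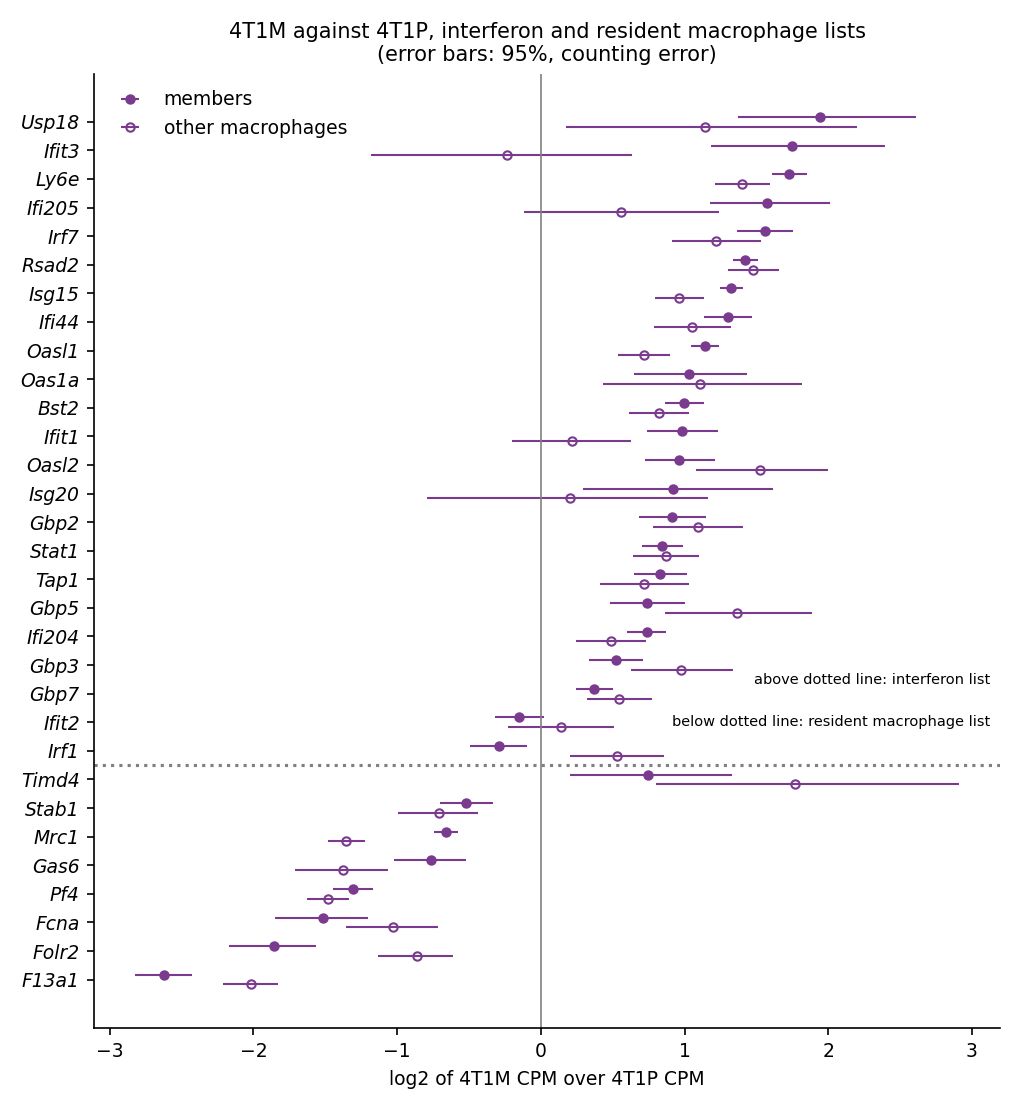
Log2 ratio of 4T1M over 4T1P CPM for the interferon-response list (above the dotted line) and the resident macrophage list (under it), in the chosen macrophages (members, filled) and in the other macrophages (open), with exact conditional 95% intervals. In the chosen cells 21 of 23 interferon-response genes lie above 0 and 7 of 8 resident genes lie under it.

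Among the genes named by rule, at 100 CPM or more in either library, Plac8 had the highest ratio of 4T1M over 4T1P. It stood at 21.1 CPM in the chosen cells of 4T1P and 184 CPM in 4T1M, a log2 ratio of 3.12 (2.81 to 3.46). In the other macrophages it stood at 25.7 and 190.1 CPM. Plac8 is found in monocytes and other myeloid cells. The monocyte list as a whole was split, with Ly6c2, Plac8, Ms4a4c, Hp and Ly6c1 past 1.5-fold higher and Chil3, Vcan, F13a1 and Fn1 past it lower. Without the cell with the most UMIs, the log2 ratios of Hp, Ly6c1 and Chil3 were 0.50, 0.31 and -0.32. Adamdec1, a gene of the rule, stood at 63.3 and 159 CPM, and Spon1 at 60.1 and 126 CPM. Vcam1 stood the other way, at 195.5 and 104 CPM, and Cx3cr1 at 347 and 369 CPM and Axl at 302 and 323 CPM. The levels of these 4 rule genes are bound by the choice of the cells and are given as a description.

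All 9 MHC class II genes with enough UMIs were higher in the chosen cells of 4T1M, beside 47.2% of all genes, with a median of 0.43. Of these, H2-Ob, a gene of few UMIs, was past 1.5-fold. In the other macrophages 8 of 8 were higher and 7 past it, beside 42% and 7.49% of all genes, with a median of 0.75. H2-Aa stood at 3496 and 4722 CPM in the chosen cells and 2355 and 3925 CPM in the others. B cells also carry MHC class II genes, and the B cell list was higher in the chosen cells of 4T1M too, at a sum of 31.4 CPM in 4T1P and 50.1 CPM in 4T1M, with 3 of 3 genes higher and Cd79b and Jchain past 1.5-fold. Its part in the class II values was not tested.

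Resident macrophage genes were lower in 4T1M. Of 8 with enough UMIs in the chosen cells, 7 were lower and 6 past 1.5-fold, with a median of -1.04, and Timd4 was higher. F13a1, a coagulation factor subunit made by macrophages, stood at 305 CPM in the chosen cells of 4T1P and 49.5 CPM in those of 4T1M, a log2 ratio of -2.62 (-2.82 to -2.43). Mrc1, the mannose receptor, stood at 653 and 414 CPM. Cells with 2 or more resident genes had been taken out of both libraries, and they made up 10.0% of the 4T1P and 3.61% of the 4T1M macrophages. In the other macrophages 8 of 9 such genes were lower, beside 58% of all genes, with a median of -1.35.

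Among the chemokines of the chosen cells, Ccl3, Ccl4, Ccl5 and Cxcl13 were past 1.5-fold higher in 4T1M and Ccl6, Ccl8, Ccl9, Ccl24 and Pf4 past it lower. Ccl5, a T cell attractant, stood at 288 CPM in 4T1P and 662 CPM in 4T1M. Cxcl13 rested on 1 cell, which held 96.1% of its UMIs in the chosen 4T1M cells and without which its log2 ratio was 0.05. Ccl8 stood at 368 and 98.7 CPM in the chosen cells, whereas in the other macrophages it stood at 536 and 1160 CPM.

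Among cytokines and regulators, Il1rn, the interleukin 1 receptor antagonist, and Il12b were past 1.5-fold higher in 4T1M, and Nos2, Retnla and Chil3 were among those past it lower. Of the Chil3 UMIs of the chosen 4T1P cells 67.9% were in 1 cell, of Retnla 96.4% and of Nos2 23.5%, and without that cell the log2 ratios were -0.32 for Chil3, 1.26 for Retnla and -0.21 for Nos2. Il1rn stood at 324 and 494 CPM. Il1b stood at 3402 CPM in the chosen cells of 4T1P and 4502 CPM in those of 4T1M, with a log2 ratio of 0.40, under 1.5-fold.

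Of 19 adhesion and matrix genes outside the rule, 12 were lower and 7 higher in the chosen cells of 4T1M, beside 52.8% and 47.2% of all genes, with Spon1 and Sdc1 past 1.5-fold higher and Fn1, Thbs1, Mmp2 and Ecm1 past it lower. Without 1 cell, Sdc1 and Mmp2 were not (0.50 and -0.42). Thbs1, which encodes thrombospondin 1, stood at 86.5 and 23.1 CPM, and Fn1, fibronectin, at 3400 and 2149 CPM. S100a4 stood at 102 and 35.8 CPM, Cd93 at 109 and 42.2 CPM, and Adam8 at 141 and 61.1 CPM. Among the genes named by rule, Hba-a1 and Hbb-bs had the lowest ratios, -8.71 and -8.54, mostly from the 1 globin-rich cell of 4T1P. Without the cell with the most UMIs, their log2 ratios were -1.55 and -0.88. Of 18 hypoxia and glycolysis genes, 15 were lower in 4T1M and 0 of them past 1.5-fold.

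Complement and uptake genes held a few of each direction. C2, C4b and Cfb, which belong to the early classical and alternative pathways, were past 1.5-fold higher in the chosen cells of 4T1M, and the receptor genes Itgam and Cd93 past it lower. Cfb, factor B of the alternative pathway, stood at 117 CPM in 4T1P and 282 CPM in 4T1M. C6 hardly differed, at 59.0 and 56.7 CPM. Among the uptake genes Mfge8, Timd4, Cd36 and Havcr2 were past 1.5-fold higher and Gas6 lower. Without 1 cell the log2 ratios of Mfge8 and Cd36 were 0.47 and 0.32.

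Whether any gene differed more in the chosen cells than in the other macrophages was not tested, since each condition had 1 library.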

How the data were processed

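Cells isolated for GR1 from 4T1P and 4T1M tumors were profiled in 1 droplet library each. The deposited values are raw UMI counts per gene and barcode, which the authors made with Cell Ranger 4.0.0 on mm10 per the labels and file headers. The study's methods give a later version of Cell Ranger. The authors' own comparisons were not used. The 4T1P library held 2947 barcodes and the 4T1M library 5004, with 12948585 and 19302483 UMIs in retained cells, and 5 barcodes occurred in both.

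Counts were summed over cells with Python 3.11.15, numpy 2.4.6, scipy 1.17.1 and pandas 2.3.3 and scaled to CPM. A gene had enough UMIs when chosen and other macrophages together held at least 20 in each library, or, between libraries, when both held 20 together, and log2 ratios used 0.5 UMIs added to each sum. Intervals were 95% exact Poisson for levels, exact binomial (Clopper-Pearson) for shares and exact conditional binomial for ratios, and cover counting error only. No clusters were built and no doublet caller was run. Genes were named by rule, the 12 highest and 8 lowest ratios of chosen over other macrophages and the 8 highest and 8 lowest of 4T1M over 4T1P, leaving out mitochondrial and ribosomal protein genes and numbered gene models, with rule genes left out of the first set, at 50 CPM or more on either side in each library for the first and 100 CPM in either library for the second. Lists covered macrophage functions and other cell types. No test was run, since each condition had 1 library. The members and the gene lists were chosen with earlier results of these data known. The scripts were tested on simulated data. Alternatives were other thresholds, thinning, depth matching, mean CPM per cell, other minimum UMIs, and TMM (edgeR 4.0.16) and DESeq2 1.42.0 scaling in R 4.3.3. Coordinates are GRCm38, and promoters are from RefSeq (GRCm38.p6). Some members of the lists are not reported here.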

Additional observations from a re-analysis of the deposited data

Results flagged for a closer look

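The ratio of 4T1M over 4T1P pointed opposite ways in the chosen macrophages and in the other macrophages for 4 listed genes, past 1.5-fold on both sides. Leaving out single cells, which was chosen after seeing the data, ended this for Cd36, Hspa1b and Retnla. The difference between both groups of cells was not tested. Ccl8 had log2 ratios of -1.90 in the chosen cells and 1.11 in the others, where it stood at 536 and 1160 CPM. Of its UMIs in the chosen 4T1P cells 21.2% came from 1 cell, without which the first ratio was -1.56. Of those in the other 4T1M macrophages 21.0% came from 1 cell with resident genes, without which the second ratio was 0.80. Cd36, a scavenger receptor for lipids, had log2 ratios of 1.02 and -1.10, from 3.83 and 7.90 CPM in the chosen cells and 27.2 and 12.4 CPM in the others, and 39.0% of its UMIs in the chosen 4T1M cells came from 1 cell, as did 40% of those in the other 4T1P macrophages. Without the first of these cells the ratio in the chosen cells was 0.32, and without the second the ratio in the others was -0.38. Hspa1b, an inducible heat shock protein, had log2 ratios of -0.64 and 0.80, from 288 and 185 CPM in the chosen cells and 232 and 403 CPM in the others. Of its UMIs in the other 4T1M macrophages 38.8% came from 1 cell, without which these stood at 248.7 CPM and the ratio was 0.10. Retnla had log2 ratios of -2.98 and 2.13, and without the 1 chosen 4T1P cell that held 96.4% of its UMIs there the first ratio was 1.26.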

How the results depend on the processing

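Each library is 1 pool of mice, so no value carries the spread between animals. The share of macrophages chosen was 42.5% in 4T1P and 54.1% in 4T1M. It was 49.1% and 59.8% with at least 2 UMIs of the 4 genes, 34.7% and 47.0% with at least 5, 32.5% and 38.4% with no Cxcl9 UMI, 24.1% and 39.1% with at most 5% mitochondrial UMIs, and 15.4% and 19.8% after thinning. It was 36.5% and 51.7% with none of the resident genes, and 47.3% and 56.0% with up to 7000 genes per cell. The share was higher in 4T1M under each of these settings.

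The 229 genes higher and 254 genes lower in the chosen cells became 65 and 98 with no Cxcl9 UMI, 1115 and 443 with the mean of the cells' own CPM, 508 and 903 with a minimum of 1 UMI, and 80 and 77 with a minimum of 100. The lower genes were 168 with at most 5% mitochondrial UMIs and 152 after thinning. Between the libraries, the 617 higher and 696 lower genes of the chosen cells became 296 and 325 after thinning, 2720 and 2832 with a minimum of 1 UMI, and 244 and 203 with a minimum of 100. In the other macrophages, the 641 higher and 1017 lower genes became 2438 and 3206 with a minimum of 1 UMI and 173 and 264 with a minimum of 100, and the higher genes 1010 with the mean of the cells' own CPM. After thinning, resident genes past 1.5-fold lower were 2 in the chosen cells against the others and 3 between the libraries, and interferon-response genes past 1.5-fold higher in 4T1M were 9. The cause of these shifts was not tested, apart from the minimum, which sets how many genes are counted.

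The 36 ratios of named genes, with Pf4 named in both comparisons, were recomputed to give 590 values. Of these, 587 kept their sign, 446 lay inside the counting interval of the reported value and 144 outside it. TMM and DESeq2 scaling moved no count by over 1.5 times. Without the globin-rich cell, an alternative chosen after seeing the data, the counts were 232 and 250 against the other macrophages and 616 and 692 between the libraries. Leaving out the cell with the most UMIs of a gene, also chosen after seeing the data, ended 14 of 63 calls against the other macrophages and 23 of 105 between the libraries. Both totals include rule genes, and the choice of the cells bears on the calls of these. The direction turned for G0s2 (0.053) and Gpnmb (0.53) against the other macrophages. Between the libraries it turned for Ccr7 (0.96), Hba-a2 (0.41), Hbb-bt (1.998), Retnla (1.26) and Saa3 (-0.056). No paired analysis was possible because each condition had 1 library and no test was run.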
